A study of Caenorhabditis elegans with 2 samples.

Results

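The 9 genes described here encode alpha and beta tubulins of Caenorhabditis elegans: tba-1, tba-2, tba-4, tba-5 and mec-12 encode alpha tubulins, and tbb-1, tbb-2, tbb-4 and mec-7 encode beta tubulins. They are 9 of the 19973 protein-coding genes on the 6 nuclear chromosomes. The genes were selected on lists of FKH-2 binding whose results were already known, so the values below are descriptions and no test was run on them. Those results included a peak near tba-1 that passed the authors' reproducibility filter. A peak was counted for a gene when its point, the position the authors give inside each peak, lay in the gene body or within 2 kb of it, which is called in reach here.

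Chromatin immunoprecipitation and sequencing (ChIP-seq) mapped where FKH-2, a forkhead transcription factor, bound in whole worms at the L3 larval stage, with both sexes pooled. The single strain, OP185, has the allele unc-119(ed3) III and a transgene, wgIs185, for FKH-2 fused to eGFP. The antibody is labelled fkh-2, and the labels do not state whether it recognises the tag or the protein. There are 2 biological replicates of 1 group, and no other condition was analysed here, so every comparison is between genes or between the replicates. The promoter driving the transgene is not given in the sources used here. The following kinds of peak list were used, all on the ce11 assembly: a set of 203 peaks passed by the irreproducible discovery rate (IDR) method, 30000 peaks called on the pooled replicates, 30000 called on replicate 1 and 24744 called on replicate 2. Each peak carries the authors' score, whose scale is not stated, and rank 1 is the highest score of a list. The replicate and pooled lists were deposited as input for the IDR step and hold weak entries as well: 24.3% of pooled peaks have a q-value of 0.05 or less, and the largest pooled q-value is 0.541. The lists hold no read numbers, so the depth is unknown.

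Alpha and beta tubulin join into heterodimers that polymerise into microtubules, the filaments of the mitotic spindle, the axon and the cilium. In the worm, tba-1, tba-2, tba-4, tbb-1 and tbb-2 are broadly expressed. MEC-12 and MEC-7 form the wide microtubules of the touch receptor neurons, and TBA-5 and TBB-4 are built into the cilia of sensory neurons. FKH-2 is known for a role in forming the specialised cilia of an olfactory neuron class. Chromatin came from whole animals, so binding in few cells and weak binding in many cells cannot be told apart.

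The sequences under several peaks of these genes are printed here because the results return to them. They are from the RefSeq genome sequence of assembly WBcel235 (ce11), plus strand, 5′ to 3′, with annotated transcribed noncoding gene ends left out. Gene starts in this report are those of the annotation and were not measured. The tbb-1 sequence is III:10742505-10742794, the whole replicate 1 peak between the divergent starts of tbb-1 and rib-2, and holds none of the searched motifs. The tbb-2 sequence is III:4016392-4016681, the whole highest pooled peak of that gene, which lies in its coding sequence. The tba-4 sequence is II:10918427-10918705, the part of its highest pooled peak upstream of the gene. Capitals in the tbb-2 and tba-4 sequences mark GAGAGA on the minus strand.
tbb-1 replicate 1 peak: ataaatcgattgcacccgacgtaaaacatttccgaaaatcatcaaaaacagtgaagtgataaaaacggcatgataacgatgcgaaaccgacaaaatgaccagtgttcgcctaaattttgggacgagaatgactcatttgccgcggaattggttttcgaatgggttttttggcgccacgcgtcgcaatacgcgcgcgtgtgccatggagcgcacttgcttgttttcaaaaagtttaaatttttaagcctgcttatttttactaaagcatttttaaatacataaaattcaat
tbb-2 pooled peak: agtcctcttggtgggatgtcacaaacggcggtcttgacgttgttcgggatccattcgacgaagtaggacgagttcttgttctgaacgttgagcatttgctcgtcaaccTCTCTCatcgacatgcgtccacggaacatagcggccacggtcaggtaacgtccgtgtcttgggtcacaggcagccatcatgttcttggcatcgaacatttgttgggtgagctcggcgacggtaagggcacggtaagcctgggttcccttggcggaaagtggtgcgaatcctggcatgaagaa
tba-4 pooled peak: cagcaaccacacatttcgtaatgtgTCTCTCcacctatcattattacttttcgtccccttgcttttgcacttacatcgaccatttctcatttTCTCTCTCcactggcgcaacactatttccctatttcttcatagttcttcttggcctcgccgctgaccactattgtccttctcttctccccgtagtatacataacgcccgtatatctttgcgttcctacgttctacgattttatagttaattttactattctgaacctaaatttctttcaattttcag

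The mec-12 sequences are a pooled peak upstream of the gene, III:3139580-3139869, an intronic part of a replicate 1 peak, III:3138917-3139134, and an intronic replicate 2 peak, III:3138160-3138409. They are shown for their matches to the forkhead core, which capitals mark: RYAAAYA (R is A or G, Y is C or T) in the pooled peak and its stricter form RTAAACA in the replicate peaks, on the minus strand in replicate 2. The mec-7 sequence is X:7773505-7773754, the strongest replicate 2 peak of that gene, and capitals mark the bases of a tRNA gene, WBGene00023211.
mec-12 pooled peak: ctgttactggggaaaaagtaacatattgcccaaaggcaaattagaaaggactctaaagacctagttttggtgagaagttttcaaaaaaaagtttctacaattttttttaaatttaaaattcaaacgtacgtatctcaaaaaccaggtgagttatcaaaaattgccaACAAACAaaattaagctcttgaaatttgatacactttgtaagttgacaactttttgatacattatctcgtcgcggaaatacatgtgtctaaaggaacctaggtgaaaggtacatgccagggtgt
mec-12 replicate 1 peak: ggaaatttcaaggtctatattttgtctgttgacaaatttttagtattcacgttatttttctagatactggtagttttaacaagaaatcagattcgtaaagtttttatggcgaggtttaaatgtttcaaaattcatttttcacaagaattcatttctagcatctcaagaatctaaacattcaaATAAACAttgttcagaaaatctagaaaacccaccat
mec-12 replicate 2 peak: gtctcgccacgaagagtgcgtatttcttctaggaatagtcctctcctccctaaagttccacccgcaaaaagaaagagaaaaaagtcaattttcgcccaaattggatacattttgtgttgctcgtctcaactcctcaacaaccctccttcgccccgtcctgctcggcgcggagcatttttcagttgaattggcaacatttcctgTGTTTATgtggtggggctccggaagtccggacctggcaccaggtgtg
mec-7 replicate 2 peak: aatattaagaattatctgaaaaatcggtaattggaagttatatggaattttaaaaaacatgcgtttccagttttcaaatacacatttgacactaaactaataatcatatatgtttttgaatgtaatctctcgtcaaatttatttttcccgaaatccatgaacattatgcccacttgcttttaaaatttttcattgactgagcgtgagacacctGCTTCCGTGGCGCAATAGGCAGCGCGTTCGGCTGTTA

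The IDR set reached 1 of the 9 tubulin genes, tba-1, against 1.50% of all protein-coding genes; this contrast was used in choosing the genes. The pooled list reached 7 of 9, all but the ciliary tba-5 and tbb-4, against 85.0% of all genes. Pooled peaks with a q-value of 0.05 or less reached only tba-1 and tba-2 among the 9, against 38.4% of all genes, and the 5000 strongest pooled peaks reached the same 2 genes, against 28.5%. Replicate 1 had a peak in reach of 6 of 9 tubulin genes against 84.8% of all genes, missing mec-7, tba-5 and tbb-4. Replicate 2 reached 8 of 9 against 80.1%, missing tba-5. Among the 5000 strongest peaks of each replicate, replicate 1 reached tba-1, tba-2, tbb-1, tbb-2 and mec-12, against 29.2% of all genes. Replicate 2 reached tba-2, mec-7 and mec-12, against 29.5%. Having no peak in any list was the state of 1 of the 9, tba-5, and of 3.91% of all genes. With 9 genes, a single gene is 11.1% of the set, so no share is read as particular to the tubulins.

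**Figure D1:**
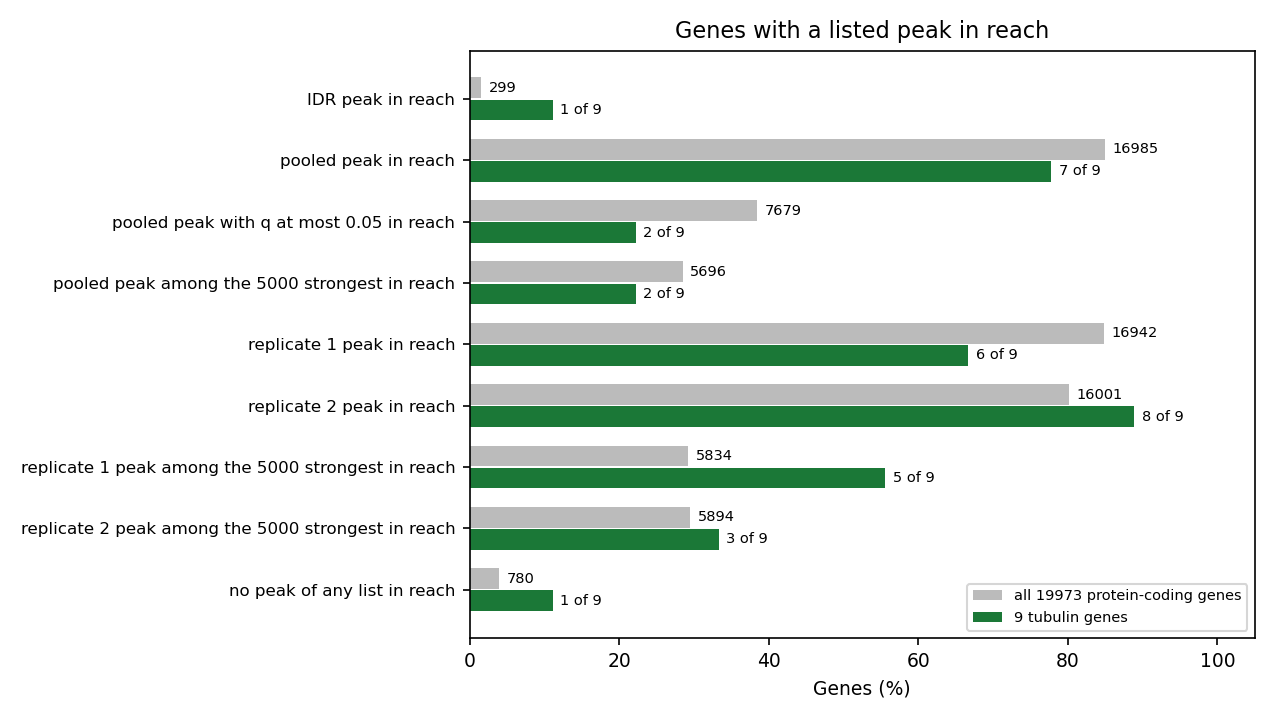
Share of genes with a listed peak in reach (%), for the 9 tubulin genes (green, number of 9 printed) and all 19973 protein-coding genes (grey, number printed), by list and threshold. The pooled list reached 77.8% of the tubulin genes and 85.0% of all genes, while pooled peaks with a q-value of 0.05 or less reached 22.2% and 38.4%.

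The 23 pooled peaks in reach were spread unevenly over the windows of the isotypes. For 12 of them another protein-coding gene had the nearer start, so the densities below describe windows and not tubulin genes alone. The 5 broad tubulins had 17 pooled peaks in 28.8 kb of gene body and flanks, or 0.591 per kb. The touch neuron pair mec-7 and mec-12 had 6 in 17.5 kb, or 0.343 per kb, and the ciliary pair tba-5 and tbb-4 had none in 15.3 kb. Over all protein-coding genes the density was 0.31 per kb. For broad, touch and ciliary windows, replicate 1 had 0.487, 0.229 and 0 peaks per kb, and replicate 2 had 0.487, 0.4 and 0.0652. Another protein-coding gene had the nearer start for 10 of the 18 replicate 1 peaks and 14 of the 22 replicate 2 peaks. Single genes did not follow the class order: tba-4 had 0.182 in replicate 1, below mec-12 at 0.343. In replicate 2, tbb-2 had 0.175, below mec-7 at 0.343 and mec-12 at 0.429. Within the broad genes the pooled density ran from 0.342 per kb at tba-1 to 0.874 at tbb-2, so the ranges of the broad and touch genes overlapped (mec-12 0.257, mec-7 0.514). Density and strength were different orders: tbb-2 had the most pooled peaks, 5, and tba-1, with 2, had the strongest. With the reach widened to 5 kb, all 9 genes, the ciliary pair included, had a pooled peak.

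**Figure D2:**
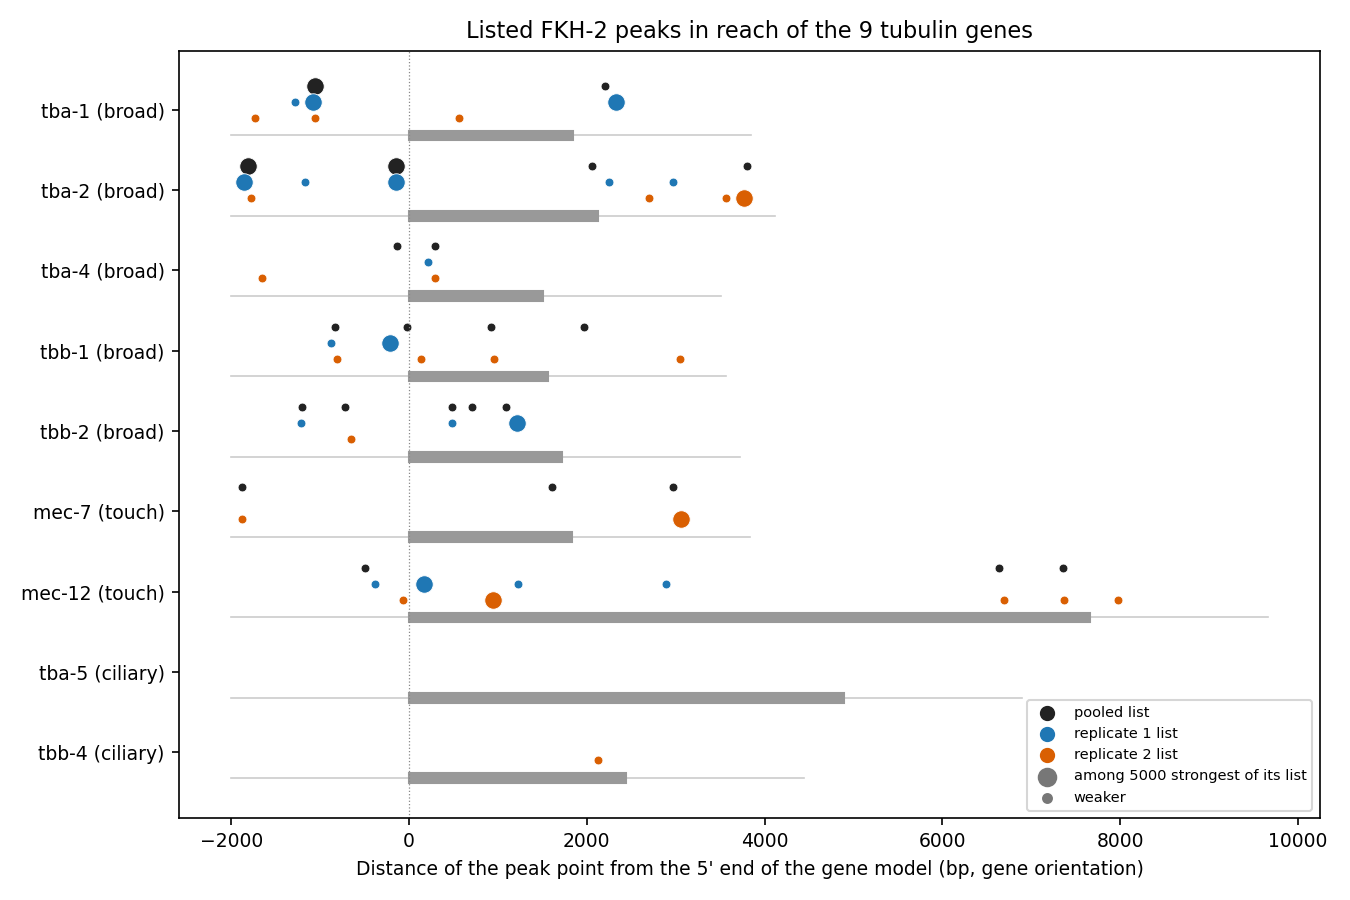
Every listed pooled (black), replicate 1 (blue) and replicate 2 (orange) peak in reach of each tubulin gene, by the distance of its point from the 5′ end of the gene model (bp, in the direction of the gene); large points are among the 5000 strongest of their list, the grey bar is the gene body and the thin line the 2 kb reach. The tba-5 row is empty and tbb-4 holds 1 weak replicate 2 peak, while the large black points are at tba-1 and tba-2 alone.

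tba-1 (WBGene00006528, I:9785781-9787624, minus strand) encodes a broadly expressed alpha tubulin. Its IDR peak, I:9788534-9788823, scored 28.3 and ranked 86 of 203, with a q-value of 0.000431. Its point lies 1055 bp upstream of the tba-1 start and 46 bp from the start of cox-5B, a cytochrome c oxidase subunit gene that is transcribed away from tba-1 across a gap of 1100 bp. The peak is therefore much nearer to cox-5B. The overlapping replicate 1 peak scored 18.9 and ranked 99, and the overlapping replicate 2 peak scored 4.24 and ranked 7328, with points 27 bp apart. Among all genes, 0.646% had a higher best pooled score than tba-1 and 0.736% a higher best replicate 1 score, but 39.9% had a higher best replicate 2 score. The peak is 49.3% G and C, and holds no forkhead core and no GAGAGA.

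The other peaks in reach of tba-1 were weaker. A pooled peak at I:9785279-9785568, score 6.43 and rank 13718, lies in the coding sequence of drsh-1, the Drosha ribonuclease gene next to the 3′ end of tba-1, and its replicate 1 partner scored 8.19 at rank 2348. Replicate 1 had a further entry, score 3.56 and rank 20074, in a cox-5B intron, and replicate 2 had another there, score 2.4 and rank 20212, which is 107 bp from the start of the noncoding RNA gene F26E4.14. The single listed peak inside tba-1 was in replicate 2 alone, at I:9786940-9787189 in the coding sequence, with score 3.02 and rank 14488. No pooled peak in reach had tba-1 as its nearest start.

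tba-2 (WBGene00006529, I:12964674-12966795, minus strand), also a broadly expressed alpha tubulin gene, had the strongest peak for which a tubulin gene was itself the nearest gene. The pooled peak I:12966794-12967083 scored 16.6 and ranked 515, with its point 144 bp upstream of the tba-2 start and a q-value of 0.000431. Replicate 1 listed the identical interval with score 16.2 and rank 180, and replicate 2 listed no peak that overlaps it. The score is below 22.2, the lowest in the IDR set. Of all genes, 3.58% had a higher best pooled score than tba-2 and 1.36% a higher best replicate 1 score. The peak holds 1 match to RYAAAYA, within 50 bp of its point, and 1 to GAGAGA.

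A second strong pooled peak in reach of tba-2, I:12968464-12968753, scored 12.6 at rank 1433, and lies beyond the upstream gene pbs-2, a proteasome beta subunit gene. Its point is 1814 bp from tba-2 and 329 bp from the pbs-2 start, and it was listed in replicate 1 at 8.52 (rank 2029), there nearest to the translation initiation factor gene eif-6, and in replicate 2 at 2.42 (rank 20029). The remaining 2 pooled peaks were close to the end of the list: score 4.36 and rank 29061 in the 3′ UTR, and score 4.35 and rank 29209 in the coding sequence of the downstream gene C47B2.2, nearest to the start of the F-box gene fbxa-140. The latter is the site of the strongest replicate 2 peak of tba-2, score 5.33 and rank 3799. So replicate 1 was strongest at the tba-2 promoter and replicate 2 on the other side of the gene. Replicate 2 also listed peaks at ranks 10097 and 11793 in C47B2.2 introns, and replicate 1 listed peaks of scores 4.86, 3.01 and 2.87 in C47B2.2 or pbs-2.

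tba-4 (WBGene00006530, II:10918706-10920211, plus strand), the remaining broad alpha tubulin gene, had 2 weak pooled peaks, both with tba-4 as the nearest gene. The upstream peak, II:10918427-10918716, has its point 134 bp from the start. It scored 6.21 at rank 14876, with a q-value of 0.199, and neither replicate list holds a peak that overlaps it. It is the peak whose printed sequence has 3 GAGAGA matches, of which a pair overlap, and no forkhead core was found in it. The peak in the coding sequence, II:10918849-10919138, scored lower, 5.05 at rank 22911, yet was listed in both replicates, at 3.82 (rank 17965) and 2.17 (rank 22607). The strongest replicate 2 peak, score 3.28 and rank 12617, lies in the coding sequence of the divergent neighbour F44F4.10. Of all genes, 61.9% had a higher best pooled score than tba-4.

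tbb-1 (WBGene00006536, III:10740868-10742432, minus strand), a broadly expressed beta tubulin gene, starts 377 bp from the divergent rib-2, a heparan sulfate glycosyltransferase gene. In replicate 1 the space between them held a peak of score 8.91 and rank 1708, the tbb-1 sequence printed above. Its point is 218 bp from tbb-1 and 160 bp from rib-2. The pooled peak overlapping it has its point 27 bp upstream of tbb-1 and scored 4.94 at rank 23781. Replicate 2 listed a peak of score 2.73 and rank 16971 in the tbb-1 coding sequence, which overlaps the pooled peak and is separated from the replicate 1 peak by 83 bp. This pooled peak thus counts as listed in both replicates although their own peaks do not meet.

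The highest pooled score in reach of tbb-1 was 6.39, rank 13932, in the coding sequence of rib-2 and 834 bp upstream of tbb-1, with replicate values of 3.5 (rank 20626) and 2.51 (rank 19044). A pooled peak of score 5.87 and rank 17067 lies in the coding sequence of K01G5.8, downstream of tbb-1, has 14 GAGAGA matches, overlapping ones counted, and was in neither replicate. A pooled peak of score 5.67 and rank 18348 in the tbb-1 coding sequence was in replicate 2 alone, at 2.6 (rank 18153), and is nearer to the start of K01G5.8 than to that of tbb-1. Replicate 2 also had a peak of score 2.25 in an intron of smap-1. Best scores above that of tbb-1 were held by 59.7% of genes in the pooled list, 11.3% in replicate 1 and 67.9% in replicate 2.

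tbb-2 (WBGene00006537, III:4015910-4017627, minus strand), the other broad beta tubulin gene, had 5 pooled peaks, the most of the 9 genes, and 3 of them lie in its coding sequence. The strongest, III:4016392-4016681, scored 8.04 at rank 7454 with a q-value of 0.0535, and its replicate 1 partner scored 6.92 at rank 4189. The others in the coding sequence scored 5.27 and 5.24, overlap each other and share 1 replicate 1 peak of score 5.55 and rank 8123. Upstream, a peak 716 bp from the start scored 6.5 at rank 13358, with a replicate 2 partner of 2.03 near the end of that list at rank 24398. The farther one scored 7.5 at rank 9194 and lies almost midway between tbb-2, at 1206 bp, and the snRNA-activating complex gene snpc-3.4, at 1204 bp. Its replicate 1 partner scored 3.31. None of the 5 was listed in both replicates, and tbb-2 is the nearest protein-coding gene for 4 of them. Over genes of every biotype, the start of the piRNA gene 21ur-13952 is nearer to the strongest peak, at 600 bp, and that of the noncoding RNA gene C36E8.10 to both upstream peaks, at 226 and 716 bp.

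mec-7 (WBGene00003171, X:7774856-7776689, minus strand) encodes the beta tubulin of touch receptor neurons. It had no replicate 1 peak in reach, and 3 pooled peaks of nearly equal score: 5.68 (rank 18252), 5.64 (rank 18505) and 5.07 (rank 22748). All are below 6.19, the median of the pooled list. The first lies downstream, inside an intron of deg-1, a degenerin channel gene, with its point inside a tRNA gene, 6 bp from that gene's start. There replicate 2 had the peak X:7773505-7773754 printed above, score 7.93 and rank 729, the best rank among the 9 genes in that list. Of the 36-base runs in the pooled peak 20.4% occur more than once in the genome, with up to 20 copies, and 3.72% of those in the replicate 2 peak, with up to 19 copies. Their part in the scores was not tested. The second pooled peak, 1879 bp upstream in an intron of ZK154.4 and nearest to ZK154.1, had a replicate 2 partner of score 3.42 and rank 11623, and the one in the mec-7 coding sequence was in neither replicate. The start of another tRNA gene, WBGene00023214, is nearer to that last peak, at 1042 bp, than the mec-7 start.

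mec-12 (WBGene00003175, III:3131574-3139234, minus strand), the alpha tubulin of the same neurons, is the longest of the 9 genes, with an 11.7 kb window. Its best pooled peak scored 7.52 at rank 9130 and lies in the coding sequence, 7361 bp from its start, with a replicate 2 partner of 4.35 (rank 6884). A pooled peak in an intron scored 5.49 (rank 19576), with a replicate 2 partner of 4.69 (rank 5642). For both, the start of the downstream gene Y53G8B.1 is nearer. The pooled peak 491 bp upstream scored 5.35 (rank 20573), with a replicate 1 partner of 4.93 (rank 10853), and holds the RYAAAYA match printed above. None of these pooled peaks was in both replicates.

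Peaks of the replicates touched only at their edges at the start of mec-12, with points 245 bp apart, and no pooled peak was listed there. A replicate 1 peak whose point is 172 bp inside the gene, in an intron, scored 6.74 at rank 4591, and overlaps by 25 bp a replicate 2 peak whose point is 73 bp upstream and which scored 4.81 at rank 5240. The RTAAACA match printed for the replicate 1 peak lies within 50 bp of its point, and the overlapping replicate 2 peak holds no forkhead core. Such a match within 50 bp of the point was also in the tba-2 pooled peak in the 3′ UTR. It was in the tbb-1 replicate 2 peak in the coding sequence as well. Motif shares over all peaks of the replicate lists were not counted. The strongest replicate 2 peak of mec-12, score 6.7 and rank 1564, is 949 bp into the gene in an intron, also with an RTAAACA match, and lies 2 bp from a weak replicate 1 peak of score 2.84. A further replicate 1 peak in an intron scored 4.27 (rank 14749), and replicate 2 had a peak of 2.25 in Y53G8B.1. Best scores above that of mec-12 were held by 45.3% of genes in the pooled list, 27.1% in replicate 1 and 10.4% in replicate 2.

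tba-5 (WBGene00006531, I:8353382-8358273, plus strand), an alpha tubulin gene of ciliated sensory neurons, had no peak in reach in any list over its 8.89 kb window. The nearest listed points were 4724 bp to its left, in replicate 2 with score 4.35 and rank 6864, and 2877 bp to its right, in the pooled list with score 8.66 and rank 5919. The stretch between them was 12.5 kb. tbb-4 (WBGene00006538, X:9434452-9436893, minus strand), the ciliary beta tubulin gene, had a single listed peak, X:9434644-9434893, in its coding sequence in replicate 2, with score 2.1 at rank 23497 of 24744. The nearest pooled points were 3375 bp and 4792 bp from the gene. The farther one is an IDR peak, X:9441540-9441829, which scored 22.2 and ranked 203, last in that set. Its point lies 114 bp from the start of memb-1, a Golgi SNARE gene, and outside the reach used for tbb-4. At the read depth of these lists, which is unknown, the missing entries say only that no peak was listed.

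**Figure D3:**
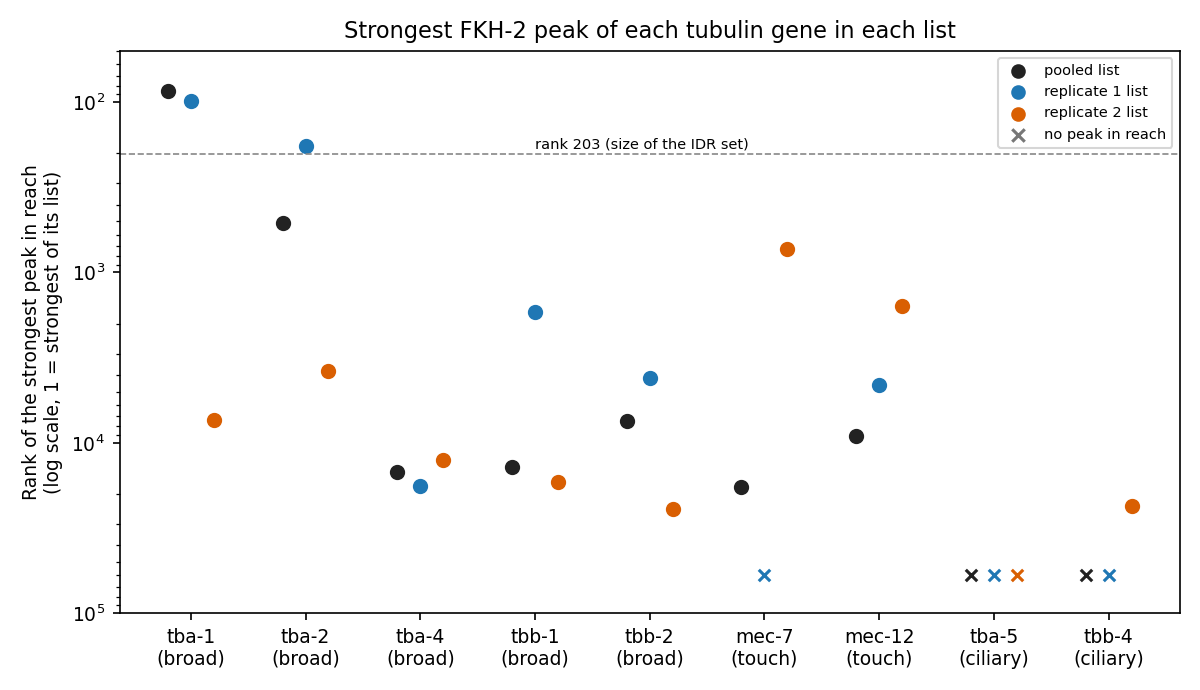
Rank of the strongest peak in reach of each tubulin gene (log scale, 1 is the strongest of the list) in the pooled list (black), replicate 1 (blue) and replicate 2 (orange); crosses mark lists with no peak in reach and the dashed line is rank 203, the size of the IDR set. tba-1 and tba-2 are near the top in the pooled list and replicate 1, and mec-7 (rank 729) and mec-12 (rank 1564) lead in replicate 2. That mec-7 peak lies downstream of the gene, in a deg-1 intron beside a tRNA gene. The strongest tba-1 peak in the pooled list and replicate 1 is nearer to the start of cox-5B.

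The order of the genes depended on the replicate. By best pooled score it was tba-1, tba-2, tbb-2, mec-12, tbb-1, tba-4 and mec-7, from 28.3 down to 5.68, and by best replicate 1 score tba-1, tba-2, tbb-1, tbb-2, mec-12 and tba-4, from 18.9 down to 3.82. By best replicate 2 score it was mec-7, mec-12, tba-2, tba-1, tba-4, tbb-1, tbb-4 and tbb-2, from 7.93 down to 2.03. Only 2 pooled scores stood well above the rest, since the next, 8.04 at tbb-2, is within the range of the others and near 7.75, the median best pooled score of all genes with a peak. The tba-1 score belongs to a peak 46 bp from the cox-5B start and 1055 bp from tba-1. At a reach of 1 kb the best pooled score of tba-1 was 6.43. Of the touch neuron genes, mec-7 was last and mec-12 in the middle of the pooled order, and both led the replicate 2 order. The leading mec-7 peak lies downstream of the gene, in a deg-1 intron beside a tRNA gene. Replicate 1 had no peak in reach of mec-7. A score has no error of its own in the files, so neighbours in these orders cannot be ranked beyond the difference between the replicates.

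Of the 23 pooled peaks, 5 overlapped a peak in both replicates, 8 in replicate 1 only, 7 in replicate 2 only and 3 in neither. Over the whole pooled list the shares were 17.5%, 40.6%, 23% and 18.9%. All 5 peaks found in both replicates were in reach of broad tubulins, at tba-1, tba-2, tba-4 and tbb-1. The peaks at tba-1, at tba-2 and in the rib-2 coding sequence were nearest to the starts of cox-5B, pbs-2 and rib-2. At the other tbb-1 peak the replicates' own peaks do not meet. Broad tubulins had 17 of the 23 pooled peaks. Every touch neuron peak with a partner had it in a single replicate, all in replicate 2 except the upstream peak of mec-12. The replicates directly overlapped at 5 genes, with 6 replicate 1 peaks touching 5 of replicate 2. At mec-12 this overlap was 25 bp.

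**Figure D4:**
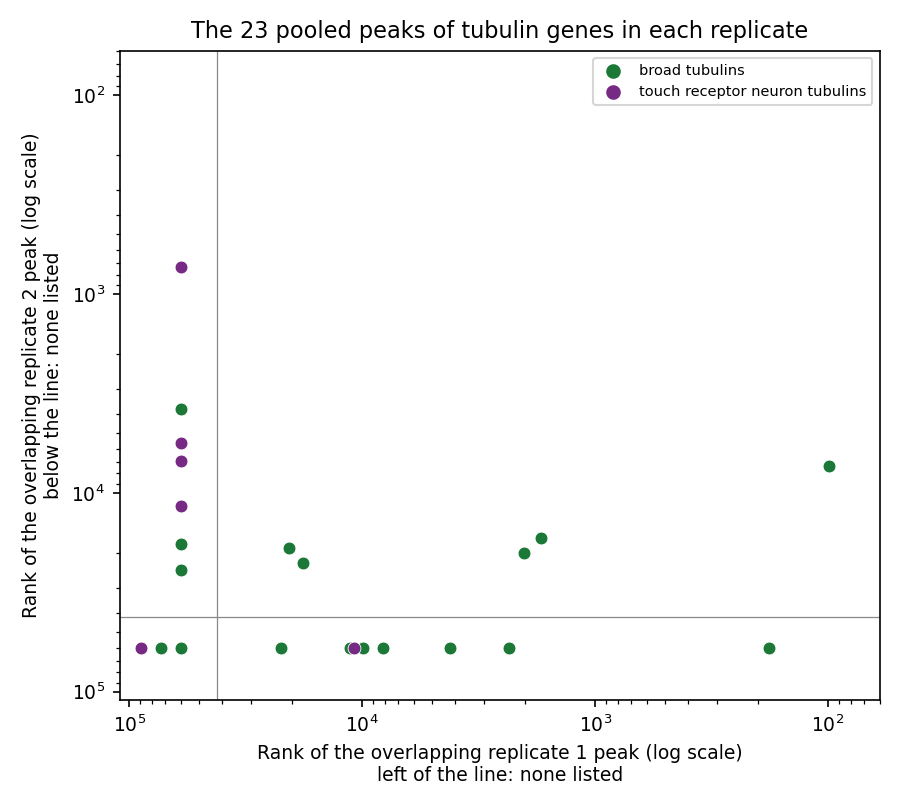
Each of the 23 pooled peaks by the rank of the overlapping replicate 1 peak (horizontal, log scale) and replicate 2 peak (vertical, log scale); points left of the vertical line or below the horizontal line have no partner in that replicate, and points that would coincide are shifted sideways. The 5 peaks with partners in both replicates are all in reach of broad tubulins, though some are nearer to another gene. The point at the far right is the peak between tba-1 and cox-5B, at ranks 99 and 7328.

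By place, 10 of the 23 pooled peaks had their point upstream of the gene, 7 in coding sequence, 1 in an intron, 1 in the 3′ UTR and 4 downstream. The tubulin gene had the nearest protein-coding start for 11 of them, and another gene for 12. Over genes of every biotype the count of 11 became 7, through a pair of tbb-2 peaks and a pair of mec-7 peaks that lie nearer to noncoding RNA genes. Points just inside the reach were at 1879 bp (mec-7, score 5.64) and 1814 bp (tba-2, score 12.6) in the pooled list, and points just outside at 2253 bp (tba-1, replicate 2, score 2.4) and 2271 bp (tbb-1, replicate 1, score 3.1). Tubulin coding sequences resemble each other, which can matter where reads are placed: tba-1 and tba-2 are 87.3% identical over aligned coding bases and tbb-1 and tbb-2 85.3%. Identical runs between members reached 53 bases, between tbb-2 and mec-7. Of the 64 peaks in reach over the 4 lists, 58 held no 36-base run that occurs again in the genome.

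Motif matches, searched on both strands, were counted beside all peaks and all promoters. RTAAACA was in 2 of the 23 pooled peaks (8.7%) and in 10.6% of all pooled peaks, and the looser RYAAAYA, which includes it, was in 5 (21.7%) against 41.1%. GAGAGA was in 7 (30.4%) against 20.2%. Within 50 bp of the peak point the shares were close to those of all pooled peaks for RTAAACA (1 peak, 4.35% against 4.15%) and RYAAAYA (4 peaks, 17.4% against 16.9%), and GAGAGA was in 3 (13% against 8.25%). The X-box core, the motif of ciliary gene promoters, was in none against 0.0233%. In the 9 promoters, from 250 bases before to 50 after the start, RTAAACA was absent, against 13.7% of all promoters, and RYAAAYA was in those of tba-1, tba-2 and tbb-4, against 52%. GAGAGA was in the promoters of tba-2, tba-4, tbb-1, tbb-2, mec-7 and mec-12, against 21.7%, and the X-box core was in none, against 0.11%. A pattern this rare would be missing from most sets of this size, so its absence is not read as a result. Looser forms of the X-box were not searched. The tubulin peaks had a median G and C content of 42.1%, against 37.2% for all pooled peaks, and the part of base composition in the motif counts was not tested.

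Other microtubule genes gave counts of the same kind. Of 7 further tubulin genes, 1 had an IDR peak in reach, 4 a pooled peak and 3 a pooled peak with a q-value of 0.05 or less. Over all protein-coding genes these shares were 1.50%, 85.0% and 38.4%. The IDR peak is that of tba-9, an alpha tubulin of ciliated neurons, at X:3257890-3258179 with score 26.8 and rank 110. It ranked 433 in replicate 1 and 93 in replicate 2 and holds 3 RTAAACA matches. Its point is 1766 bp beyond the 3′ end of tba-9 and 584 bp from the start of lbp-3, a lipid-binding protein gene. The next best pooled score there was 8.58, at tba-7.

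Among 10 matched genes of tubulin modification, which acetylate, glutamylate or trim tubulin, 0 had an IDR peak, 9 a pooled peak and 5 one at the q-value threshold. Beside these counts and those of the lists below, the shares of all genes were 1.50%, 85.0% and 38.4%. The highest scores were 14.1 at mec-17, an acetyltransferase of MEC-12, and 12.8 at ttll-4, a glutamylase. Both peaks lie downstream of these genes and are nearer to another start, that of arf-5 (1039 bp), an ADP-ribosylation factor gene, and that of ZK1128.7 (4158 bp). Among 18 tubulin folding genes the counts were 0, 15 and 10, led by the chaperonin subunits cct-8 (19.6) and cct-1 (18.1), whose upstream peaks are nearer to the starts of Y55F3AR.2 (184 bp) and the Dishevelled gene mig-5 (173 bp). Among 20 genes of microtubule binding and severing they were 1, 16 and 9, led by maph-1.1 (35.7), a relative of microtubule-associated protein MAP1, and the minus-end protein ptrn-1 (18.9), whose peak is 491 bp upstream of ptrn-1, its nearest gene. The maph-1.1 peak, I:14845532-14845821, ranked 41 in the IDR set, 43 in replicate 1 and 69 in replicate 2, 799 bp upstream of its nearest gene maph-1.1. Median best pooled scores were 8.35, 8.65, 9.27 and 8.28 for the 4 lists. They were 7.52 for the 7 tubulin genes with a pooled peak and 7.75 for all protein-coding genes with one.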

How the data were processed

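Peak lists of 2 biological replicates, their pool and the IDR set were used as deposited on ce11. Per the deposited descriptions, the lists derive from alignments and a control, and the IDR set from the other lists. The aligner, peak caller and thresholds are not given in the sources used here. Column 7 holds the authors' score on an unstated scale, from which peaks were ranked inside each list. The deposited −log10 q-value was converted to a q-value. The ce10 lists were not used.

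Gene models were from Ensembl release 115 (WBcel235). Peaks were assigned with Python 3.11.15, pandas 2.3.3 and numpy 2.4.6, and coding sequences aligned with Biopython 1.88. Reach was 2 kb from the gene body and peaks overlapped by at least 1 bp. The assignment was tested on simulated data. Members and gene lists were chosen with earlier results of these data known. All 9 tubulins are named, every nearer gene, and per other list the genes with an IDR peak and the 2 best pooled scores. With 1 group, no test was run. Replicates are labelled biological, and precision is limited by 2 of them and unknown depth. Alternatives changed the reach, the list length, the q-value and the biotypes.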

Additional observations from a re-analysis of the deposited data

How the results depend on the processing

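The number of tubulin genes with an IDR peak, 1, was 0 at a reach of 500 bp or 1 kb and 2 at 5 kb, 2 with the 1000 strongest pooled peaks, and from 0 (without replicate 1) to 2 (without replicate 2) when the strongest peaks of the remaining replicate stood in for the set. Genes with a pooled peak, 7, became 9 at a reach of 5 kb, which took in the ciliary tba-5 and tbb-4. The count fell to 4 with the 10000 strongest peaks and to 2 at a q-value of 0.05, an alternative chosen after seeing the data. It ranged from 6 to 8 with a single replicate. The 23 pooled peaks became 15 at 500 bp, 45 at 5 kb, 6 with the 10000 strongest and 3 at that q-value, and 18 to 22 with a single replicate. The 2 genes among the 5000 strongest became 1 at 500 bp and 1 at 1 kb, 4 at 5 kb, 4 with the 10000 strongest, and 3 without replicate 1 to 5 without replicate 2. The 5 peaks in both replicates became 2 at 500 bp, 3 at 1 kb, 9 at 5 kb, and 0 among the 5000 strongest of each replicate. The 11 peaks with a tubulin gene nearest became 2 with the 10000 strongest, 7 when genes of every biotype were counted, and 8 with either single replicate. A shorter or longer reach, fewer or more peaks, and more genes can change the counts by construction. Some counts stayed: 7 genes with a pooled peak at 500 bp and at 1 kb, and 11 peaks with a tubulin gene nearest at 5 kb. The 2 genes among the 5000 strongest stayed 2 with the 2000 strongest. The cause of the differences between single replicates was not tested. Of 35 alternative best scores, 27 were unchanged; that of tba-1 was 6.43 at 500 bp and 1 kb. No paired analysis was possible because there is 1 group. Unknown depth limits what a missing peak can show.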
